A study of Homo sapiens with 4 samples.

Results

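The 10 genes described here include those of the transcription factor of the hypertonic response and of some of its targets. Others encode the WNK kinase cascade and a chloride cotransporter whose activity it sets. SGK1, a kinase gene, and SMPD2, a neutral sphingomyelinase gene, are also among the 10. The 10 were NFAT5, AKR1B1, SLC5A3, SGK1, WNK1, WNK4, STK39, OXSR1, SLC12A2 and SMPD2. A gene was found by its symbol in the authors' deposited comparison sheet, and its values were taken from the gene-level table under the same probe set identifier. Each of the 10 symbols matched 1 transcript cluster, the array's unit for a gene, and the sheet held 24305 distinct symbols in all.

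The cells were MDA-MB231, an established human breast carcinoma line. Cells were plated at 10000, grown for 24 hours in DMEM with 10% serum, and then kept for 3 days in control or treated medium. Both media joined 1 part of 10X DMEM with 9 parts of hypotonic saline, so the control cells also met that saline. The labelled difference was 30 minutes of exposure of the treated medium's saline to the dc DEP EMF that a BEFE unit makes. The comparison asks which genes differ when cells grow in medium made with exposed saline. Neither the labels nor the files give the osmolality of either medium.

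Cells that shrink in hypertonic fluid first take up ions and later replace them with small organic solutes. NFAT5 drives that later step by switching on genes for solute carriers, for the enzyme that makes sorbitol, and for chaperones. WNK kinases respond to chloride and cell volume, and they activate the kinases STK39 and OXSR1, which phosphorylate cotransporters that bring in or let out chloride. In tumour cells volume control by these transporters has been studied in migration, and NFAT5 has known roles outside osmotic stress.

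The NFAT5 binding element, called TonE, was searched in promoters as TGGAAA followed by 5 bases with a pyrimidine at the third and the fifth, on both strands. The RefSeq promoter table of GRCh38.p14, with 250 bases before and 50 bases from each start, had 11 entries for 8 of the 10 genes. None of the 11 entries held TonE, and 1 held TGGAAA, while 4.92% of all 35116 entries held TonE and 20.7% held TGGAAA. The absence says only that these letters are not in this window. AKR1B1 is shown for the 250 bases before the start because it is the known NFAT5 target with the highest difference. Of its 2 entries, 1 is shown. Its capitals mark GGAAA, the shorter core shared by the NFAT family, on either strand, which 55.6% of all entries hold in the same window. The stretch shown holds 2, and 22.4% of all entries hold at least 2. The others show TGGAAA or TonE in capitals with 8 bases on each side. WNK1 is the member with a match. SLC38A2, a neutral amino acid carrier, and HSPA4L, a chaperone, come from the list of NFAT5 targets described below. In that list 4 of 17 entries held TonE, and these belonged to 3 of the 9 genes with an entry. The third was PNPLA6. The SLC38A2 match begins 27 bases after the start, and the HSPA4L match shown begins 17 bases before it.
AKR1B1, chr7:134459240-134459489, minus strand: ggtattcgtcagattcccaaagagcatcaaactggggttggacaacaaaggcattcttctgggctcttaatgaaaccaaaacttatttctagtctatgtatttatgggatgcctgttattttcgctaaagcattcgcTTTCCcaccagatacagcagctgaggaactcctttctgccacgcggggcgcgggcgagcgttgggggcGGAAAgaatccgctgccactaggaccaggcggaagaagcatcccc
WNK1, chr12:752337-752358, plus strand: agggacggTTTCCAaagaaaac
SLC38A2, chr12:46372728-46372754, minus strand: gccttagaACGCCTTTCCAgtactgct
HSPA4L, chr4:127783498-127783524, plus strand: ttatgtcaTGGAAACATGTttccacat
In HSPA4L a match on the opposite strand overlapped the one shown. No entry for NFAT5 or WNK4 was used.

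Each medium had 1 column of log2 signal at gene level and 1 at exon level, so no spread between cultures could be measured and no test was run. The labels mention 5 biological replicates in each group for RNA integrity, and how these relate to the deposited columns is not stated. All differences below are log2 treated minus log2 control. A gene counted as above the floor when its signal averaged over both media reached 7.17, the median of this average among probe sets that carry 1 symbol, and 12353 genes did. Of these, 3.22% were higher by at least 2-fold and 3.46% at least 2-fold lower in treated medium, with a median difference of -0.01. Of 6 genes that this line is known to express (VIM, CD44, AXL, MSN, CAV1 and LGALS1), all 6 were above the floor, and ESR1, PGR and CDH1 were under it. GATA3 and FOXA1, luminal breast factors listed as low in this line, lay above the floor with signals of 8.04 and 7.36 in control medium. All 8 matched markers of other cell types were under it.

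In treated medium the signals of NFAT5, AKR1B1 and WNK4 were higher, and those of the other 7 genes lay within 1.5-fold of control. NFAT5 was 2.04-fold and AKR1B1 1.84-fold higher. WNK4 was 1.66-fold higher as measured, but its control signal was under the floor and it passed the floor through its treated signal. With its control signal raised to the floor WNK4 was 1.31-fold higher, within 1.5-fold. The lowest difference was that of SLC12A2, at -0.32. Of the 10 genes 9 were above the floor, the exception being SGK1. Of the 9, 1 was at least 2-fold higher, against 3.22% of all genes above the floor, and 0 were at least 2-fold lower, against 3.46%. At 1.5-fold, 3 were higher, or 2 with the control signal of WNK4 set to the floor, against 9.46% of all genes, and 0 were lower, against 9.74%. The median of the 9 was 0.05, with 5 differences above 0 and 4 below. Counts this small in a chosen list of 9 do not set it apart from all genes.

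**Figure D1:**
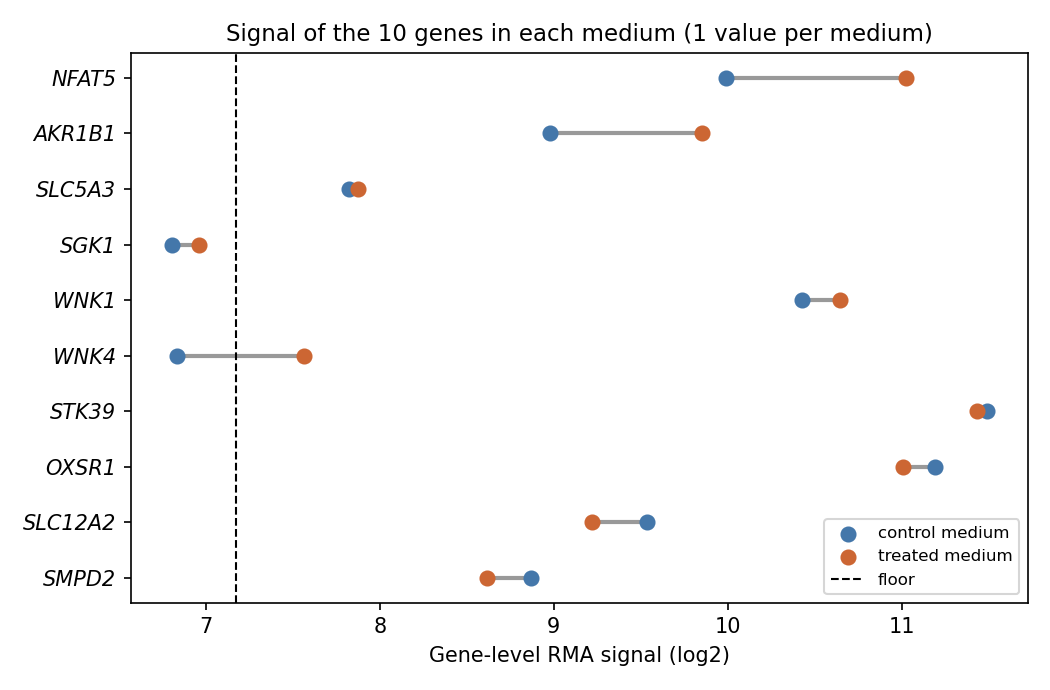
Gene-level RMA signal (log2, horizontal axis) of the 10 genes in control medium (blue) and treated medium (orange), with 1 value per medium and the floor of 7.17 as a dashed line. The widest gaps are those of NFAT5, AKR1B1 and WNK4, and both points of SGK1 lie left of the floor.

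**Figure D2:**
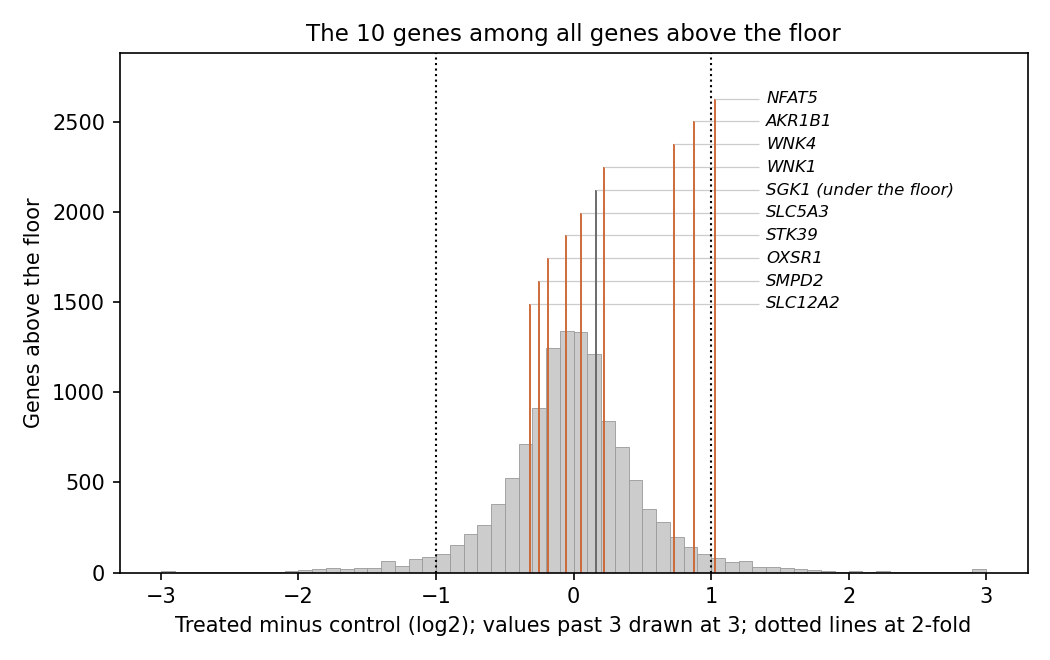
Histogram of the difference between media (log2, horizontal axis) for 12353 genes above the floor, with a vertical line for each of the 10 genes and dotted lines at 2-fold. NFAT5 stands just past the line at 2-fold, and 7 of the genes stand in the body of the distribution.

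NFAT5, also called TonEBP, is the transcription factor of the hypertonic response. Its signal (transcript cluster 16820601) was 9.99 in control medium and 11.02 in treated medium, a difference of 1.03. Among the genes above the floor, 374 had a higher difference. In the authors' deposited table its control over treated ratio was 0.489, and it was the 1 gene of the 10 whose ratio passed 2-fold.

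The difference of NFAT5 was present in nearly all of its probe sets. Exon-level probe sets measure short stretches of a transcript, and 17 were assigned to NFAT5. The exon-level floor of 7.34 is the median, among all exon-level probe sets, of the mean over both media. Of the 16 whose mean reached it, all 16 were higher in treated medium, by 0.51 to 1.44, and 8 by at least 2-fold. Of all exon-level probe sets above that floor, 4.59% were at least 2-fold higher and 4.89% at least 2-fold lower. The remaining probe set had signals of 6.08 in control medium and 5.79 in treated medium. The exon-level median of NFAT5 was 0.94, or 0.999 over probe sets above the floor, both just under 2-fold, so whether NFAT5 passes 2-fold depends on the summary.

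AKR1B1 encodes aldose reductase, which makes the osmolyte sorbitol from glucose. Its signal (transcript cluster 17063100) was 8.98 in control medium and 9.85 in treated medium, a difference of 0.88. All 18 exon-level probe sets were higher in treated medium. Of these, 15 were above the exon-level floor, with differences from 0.44 to 2.15 and 3 of at least 2-fold.

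Among 6327 genes above the floor with at least 10 exon-level probe sets above theirs, 9.25% had every such probe set higher in treated medium, and 11.7% had every one lower. NFAT5 and AKR1B1 belonged to the first kind. Probe sets of a gene share the same labelled RNA and are not replicates of a medium.

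The 3 probe sets of AKR1B1 with the highest control signals, from 13.10 to 13.18, had its 3 smallest differences, from 0.44 to 0.48. The probe set with the largest difference had signals of 6.65 in control medium and 8.80 in treated medium. Over the 15 probe sets above the floor the median was 0.68, against 0.87 over all 18.

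SLC5A3 encodes the sodium-coupled carrier that brings in the osmolyte myo-inositol, another known NFAT5 target. Its signal (transcript cluster 16922396) was 7.82 in control medium and 7.87 in treated medium, a difference of 0.05. Of its 21 exon-level probe sets, 10 were above the exon-level floor, with differences from -0.27 to 0.12, and 3 of these 10 were higher, with a median of -0.03. The 11 under that floor held the widest differences, from -0.93 to 1.57. In RefSeq the mitochondrial ribosomal protein gene MRPS6 shares the start of SLC5A3, and 0 clusters of the sheet named MRPS6. Which of the probe sets also read MRPS6 was not tested.

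WNK4 and WNK1 encode kinases at the head of the cascade. WNK4 (transcript cluster 16834449) had a signal of 6.83 in control medium and 7.56 in treated medium, a difference of 0.73. With the control signal raised to the floor of 7.17 the difference was 0.39.

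Of the 19 exon-level probe sets of WNK4, 16 were higher in treated medium. Only 8 were above the exon-level floor, and of these 6 were higher, with a median of 0.60 and a range from -0.54 to 1.56. The largest difference in the whole set of 10 genes came from a WNK4 probe set with signals of 3.00 in control medium and 7.75 in treated medium. The next largest, also in WNK4, had 4.29 and 7.37. The means of both probe sets were under the exon-level floor.

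WNK1 (transcript cluster 16746591) had a signal of 10.42 in control medium and 10.65 in treated medium, a difference of 0.22. Of its 32 exon-level probe sets, 27 were above the exon-level floor, and 22 of these were higher, with a range from -0.53 to 0.55. None of the 27 reached 2-fold in either direction.

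STK39 and OXSR1 encode SPAK and OSR1, the sister kinases that WNK kinases switch on. STK39 (transcript cluster 16904741) had a signal of 11.49 in control medium and 11.43 in treated medium, a difference of -0.05. Of its 15 exon-level probe sets above the floor, 7 were higher and 8 lower. OXSR1 (transcript cluster 16939142) had a signal of 11.19 in control medium and 11.01 in treated medium, a difference of -0.19. Of its 14 probe sets above the floor, 12 were lower, and 1 of these by at least 2-fold, with signals of 8.30 in control medium and 7.28 in treated medium. At the level of RNA both effector kinases therefore lay within 1.14-fold of control, in columns that allow no statement of error.

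SLC12A2 encodes NKCC1, the sodium, potassium and chloride cotransporter that STK39 and OXSR1 activate by phosphorylation. Its signal (transcript cluster 16988801) was 9.53 in control medium and 9.22 in treated medium, a difference of -0.32, or 1.25-fold lower. Of its 24 exon-level probe sets above the floor, 21 were lower and 3 higher, with differences from -0.59 to 0.49. The 6 probe sets under the floor included the extremes of the gene, at -1.58 and 1.93.

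SGK1 encodes a serum- and glucocorticoid-inducible kinase that hypertonicity is known to induce, and that promotes ion uptake. Its gene-level signal (transcript cluster 17023810) was 6.80 in control medium and 6.96 in treated medium, both under the floor, with a difference of 0.16. The gene had the most exon-level probe sets of the 10, 37, and 22 of them were under the exon-level floor. Of the 15 above it, 11 were higher and 4 lower, with a median of 0.26. Of these 15, 1 was at least 2-fold lower, with signals of 8.33 in control medium and 6.87 in treated medium. The SGK1 probe set with the highest control signal had 11.03 in control medium and 11.25 in treated medium. The one with the lowest had 2.32 and 2.48. Part of the probe sets of SGK1 thus lay above the exon-level floor although its gene-level value lay under the gene-level floor. Neither floor is a detection call.

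SMPD2 encodes a neutral sphingomyelinase, an enzyme that releases ceramide and has been linked to stress signalling. Its signal (transcript cluster 17011572) was 8.87 in control medium and 8.62 in treated medium, a difference of -0.25. Of its 13 exon-level probe sets, 11 were above the floor, and 8 of these were lower and 3 higher, with differences from -0.60 to 0.25. None of the 11 reached 2-fold. In RefSeq the gene PPIL6 overlaps SMPD2, and which of the probe sets also read PPIL6 was not tested.

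**Figure D3:**
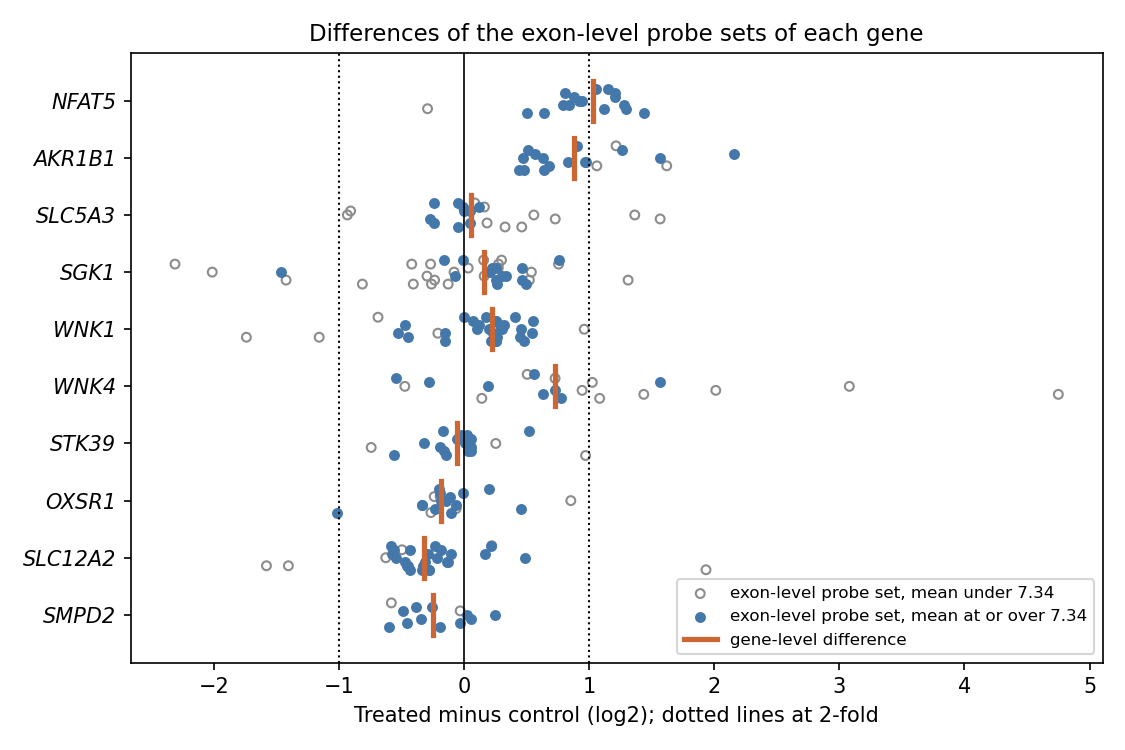
Difference between media (log2, horizontal axis) of each exon-level probe set of the 10 genes, filled where its mean reached the exon-level floor of 7.34 and open where it did not, with the gene-level difference as an orange bar and dotted lines at 2-fold. The filled points of NFAT5 and AKR1B1 all lie above 0, and the widest differences of WNK4 are open points.

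**Figure D4:**
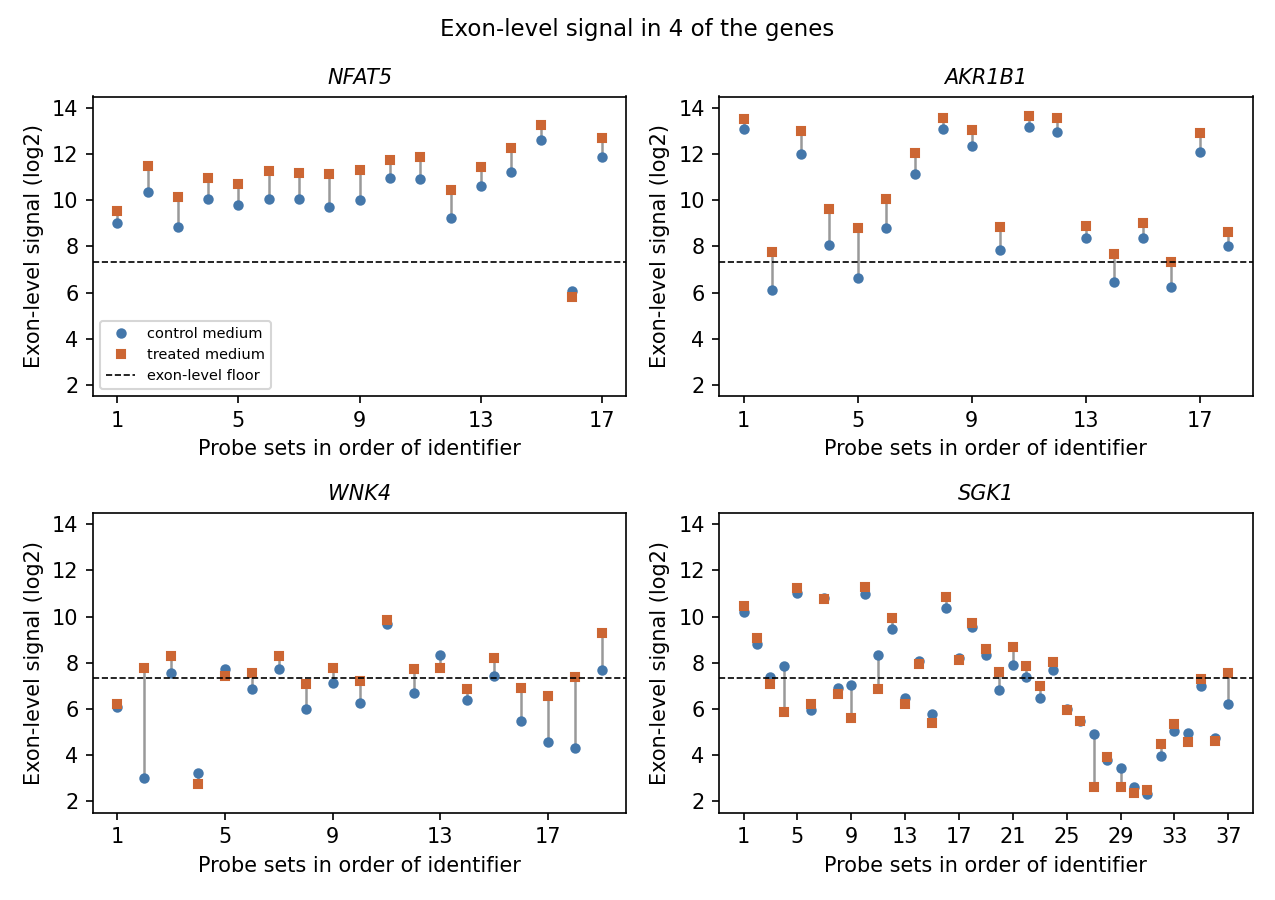
Exon-level signal (log2, vertical axis) of NFAT5, AKR1B1, WNK4 and SGK1 in control medium (blue circles) and treated medium (orange squares), with probe sets in the order of their identifiers, a grey line joining each pair, and the exon-level floor dashed. In NFAT5 and AKR1B1 the treated point is the upper one at every probe set above the floor, and in SGK1 the order of the points varies along the gene.

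The gene-level and exon-level values are not independent measurements. For 6 of the 10 genes the gene-level difference equalled the median of the exon-level differences within 0.001, as it did for 5806 of 26802 clusters with at least 3 exon-level probe sets. The largest gap among the 10 genes was 0.089, in NFAT5.

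Around NFAT5, the listed targets and osmolyte carriers showed both directions. Of 11 genes, 9 were above the floor. None of the 9 was at least 2-fold higher (3.22% of all genes) and 3 were at least 2-fold lower (3.46%), with a median of 0.27 against -0.01 for all genes. AKR1B1 had the highest difference. HSPA4L, a chaperone of the HSP110 family, had the lowest, with signals of 10.28 in control medium and 8.93 in treated medium. The inducible chaperone genes HSPA1B and HSPA1A were 2.54-fold and 2.29-fold lower. Those 2 are near-identical copies whose separate signals are uncertain, and they also belong to the heat shock response. Without them 1 gene of the list was at least 2-fold lower.

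Among the carriers of that list, SLC38A2 had a signal of 12.81 in control medium and 13.47 in treated medium, a difference of 0.66, and its 23 exon-level probe sets were all higher. SLC6A6, the taurine carrier, had a difference of 0.33, and SLC6A12, the betaine carrier, had 0.27 with a control signal of 7.11, under the floor. SLC38A2 is also a gene of the amino acid response. The other carriers of the list were SLC5A3, with a difference of 0.05, and SLC14A2, with -0.12 and both signals under the floor. Apart from SLC5A3, these carriers were named after their values were seen.

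Among 12 kinases and adaptors reported upstream of NFAT5, 9 were above the floor, with a median of 0.08. FYN, a Src family kinase, was the 1 gene of the 9 at least 2-fold higher, against 3.22% of all genes, with signals of 7.73 in control medium and 8.85 in treated medium. MAP3K3, a kinase of the stress cascade, was lowest at -0.57, with all 16 exon-level probe sets lower. None was at least 2-fold lower, against 3.46% of all genes. In the NFAT family, whose other members answer to calcium through calcineurin, all 5 genes were above the floor. NFAT5 had the highest difference and NFATC4 the lowest, at -0.17, and NFATC1, NFATC2 and NFATC3, added here to complete the family, had 0.36, 0.11 and -0.08.

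In the polyol pathway AKR1B1 was the 1 gene above 0 among 4 above the floor, with a median of -0.67. KHK, the kinase that phosphorylates fructose, was 2.64-fold lower, with signals of 8.79 in control medium and 7.39 in treated medium, and was the 1 gene past 2-fold, against 3.22% of all genes higher and 3.46% lower. SORD, which turns sorbitol into fructose, had 9.74 and 8.88, a difference of -0.87, and 12 of its 14 exon-level probe sets were lower. AKR1A1, a related aldehyde reductase, had -0.48. SORD and AKR1A1 were named to complete the genes above the floor. The list held 6 genes, and AKR1B10 and AKR1B15 were under the floor, with differences of -0.25 and -0.38.

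For inositol, 5 of 7 genes were above the floor, with a median of -0.58. None of the 5 passed 2-fold, against 3.22% of all genes higher and 3.46% lower. ISYNA1, the inositol phosphate synthase, was highest at 0.54, with signals of 7.22 in control medium and 7.76 in treated medium. The inositol monophosphatase gene IMPA2 was lowest at -0.79, with 8.27 and 7.48. SLC5A3 lay between them.

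Of 18 genes of the WNK cascade and its regulators, 14 were above the floor, with a median of 0.09. Of the 14, 1 was at least 2-fold higher, against 3.22% of all genes, and 0 were at least 2-fold lower, against 3.46%. TSC22D3, known as GILZ, is a glucocorticoid-induced gene of the TSC22 domain family, other members of which have been linked to WNK kinases. It was highest, with signals of 7.48 in control medium and 8.79 in treated medium, 2.48-fold higher. Its exon-level median of 0.87 was under 2-fold. OXSR1 was lowest. WNK2 and WNK3 were under the floor, with differences of -0.31 and 0.14. KLHL3, which with CUL3 marks WNK kinases for degradation, was under it too, with signals of 5.42 and 5.21, while CUL3 had a difference of -0.01. The genes after OXSR1 were named to show the other WNK kinases and KLHL3 with CUL3, and they do not complete the list. At 1.5-fold, 3 of the 14 were higher (TSC22D3, WNK4 and NEDD4), against 9.46% of all genes. WNK4 passed the floor only through its treated signal. With its control signal raised to the floor it was 1.31-fold higher and left that count. None was lower at 1.5-fold, against 9.74%. NEDD4, named after its value was seen, had a difference of 0.65.

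Among 9 genes of the SGK family and its partners, 7 were above the floor, with a median of 0.23 and 0 at least 2-fold lower, against 3.46% of all genes. NDRG1, whose protein SGK1 phosphorylates, was the 1 gene at least 2-fold higher, against 3.22%, with signals of 7.53 in control medium and 8.93 in treated medium, and it is also a hypoxia-responsive gene. SGK3 was lowest at -0.44.

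Of 9 cation-chloride cotransporter genes, 4 were above the floor, with a median of -0.21. None of the 4 passed 2-fold, against 3.22% of all genes higher and 3.46% lower. SLC12A4, which encodes the potassium and chloride exporter KCC1, was lowest, with signals of 9.66 in control medium and 8.88 in treated medium, a difference of -0.78. SLC12A2, the importer, had the next lowest difference.

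Of 11 sphingomyelinase and ceramide genes, 9 were above the floor, with a median of 0.03. None of the 9 passed 2-fold, against 3.22% of all genes higher and 3.46% lower. SMPD1, the lysosomal acid sphingomyelinase, was highest at 0.43, with signals of 9.68 in control medium and 10.11 in treated medium. SMPD4, a neutral sphingomyelinase, was lowest at -0.61, with 8.33 and 7.72.

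**Figure D5:**
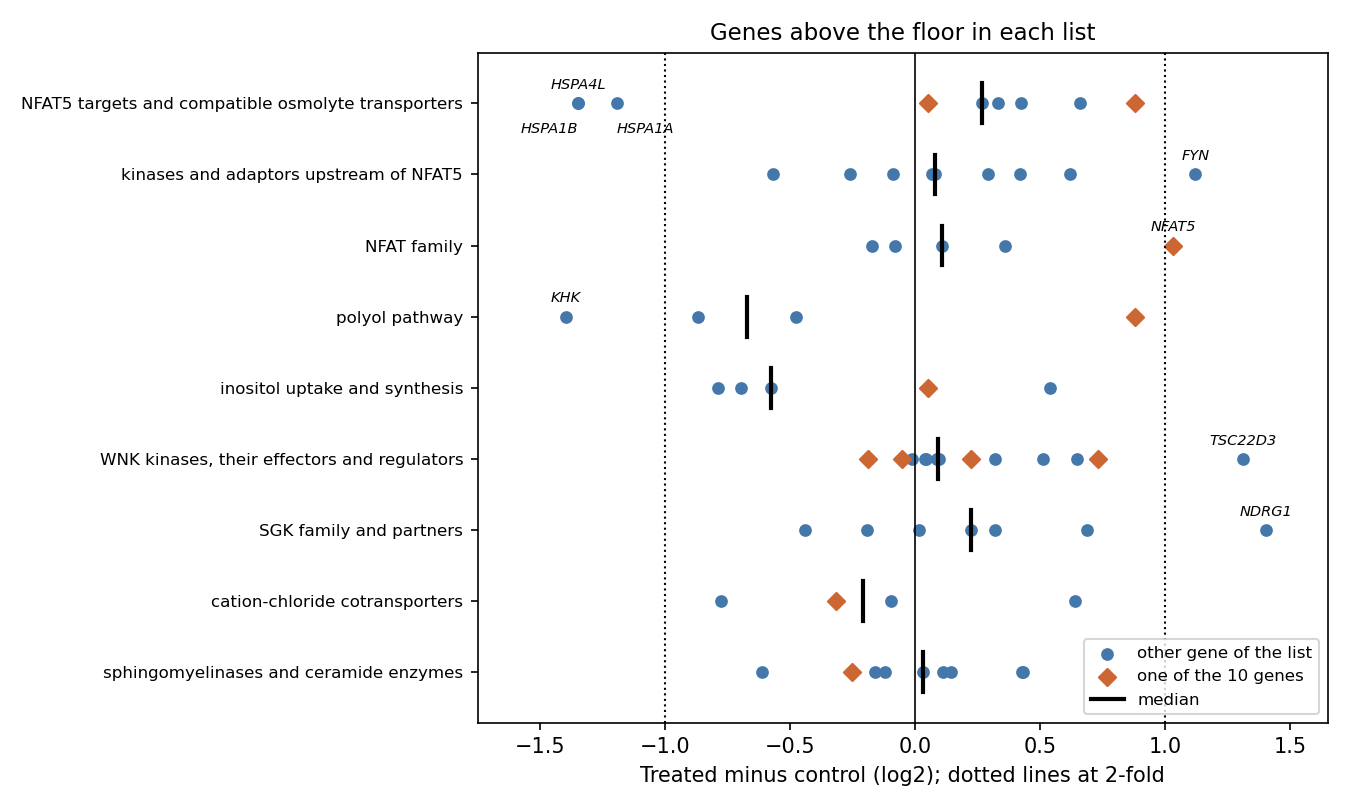
Difference between media (log2, horizontal axis) of the genes above the floor in 9 lists, with the 10 genes as orange diamonds, other genes as blue circles, the list median as a black bar, and dotted lines at 2-fold. AKR1B1 and the other polyol genes lie on opposite sides of 0, and the genes past 2-fold carry their symbols.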

How the data were processed

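The deposited gene-level (53617 probe sets) and exon-level (352859) tables hold log2 signal that the authors made with RMA and Affymetrix Expression Console (submitters' processing notes). Tool versions, genome build and any pooling of arrays are not given in the sources used here. Because RMA gives all arrays 1 distribution of probe signals, a change common to most genes would be hidden. The authors' deposited sheet adds linear intensity values and a control over treated ratio; its log2 intensities matched the gene-level table within 5.03e-05. Of the probe sets, 25937 had 1 symbol, and a symbol with several clusters was represented by the one with the highest mean.

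Exon-level probe sets carry no gene name and were given to the gene-level identifier that theirs follows. The exon median and the gene-level control signal had a Pearson r of 0.981 across 26802 clusters, which are not independent replicates. Listed genes were named if past 2-fold, highest or lowest (1 such gene is not reported here); with 2 columns, no gene was ranked by likeness to the members. Members and lists were chosen with earlier results of these data known. Counting was tested on simulated data with shifts well past 2-fold and little noise (Python 3.11.15, pandas 2.3.3). That test checks the code and says nothing about differences near 2-fold, such as that of NFAT5. The number of arrays limits the precision.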

Additional observations from a re-analysis of the deposited data

How the results depend on the processing

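Of 111 values recomputed under alternatives, 103 kept their side of 2-fold and stayed within 1.5 times. The other 8 did not meet both conditions, and no value past 2-fold changed sign. With the exon-level median NFAT5 had a difference of 0.94 and the number of members at least 2-fold higher was 0. With that median over probe sets above the exon-level floor, chosen after seeing the data, they were 0.999 and 0. Under this last alternative 2 values near 0 turned sign, SLC5A3 from 0.05 to -0.03 and the median of the members from 0.05 to -0.02. At a threshold of 1.5-fold, 3 members were higher, and 2 with signals under the floor set to it, chosen after seeing the data, because WNK4 then fell to 1.31-fold. Without a floor, 1 kinase upstream of NFAT5, MAP2K6, was at least 2-fold lower. Without HSPA1A and HSPA1B, an alternative chosen after seeing the data, 1 NFAT5 target was. Under median centring and quantile normalization the difference of NFAT5 was 1.05. The cause of these moves was not tested, except that a lower threshold or floor admits more genes by construction. No paired analysis was possible because each group holds 1 sample, and no replicate could be left out.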

Other observations

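MAP2K6, a kinase of the stress cascade listed upstream of NFAT5, had signals of 6.94 in control medium and 5.37 in treated medium, a difference of -1.56, but its mean was under the floor and it entered no count above the floor.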
